A study of Mus musculus with 15 samples.

Results

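The genes of the proteasome subunits are described here in 15 RNA sequencing libraries of mouse muscle satellite cells, which are the stem cells that repair muscle. Members were all genes whose symbol is Psma, Psmb, Psmc or Psmd followed by a number. The rule found 38 of the 27573 named genes of the batch 1 table and 37 of the 13063 named genes of the batch 2 table. Psmb11 was listed in batch 1 alone. Per the labels, the cells came from hindlimb muscle, were kept in F10 with horse serum and were exposed for 24 hours to 1 of the agents below. Batch 1 held 3 libraries with DMSO, the solvent control, and 3 with 0.05 mM adenosine. Batch 2, from C57BL/6J mice, held 3 libraries with DMSO, 3 with adenosine at 0.1 mM and 3 with AMP (adenosine monophosphate) at 0.25 mM, which enzymes on the cell surface can cleave to adenosine. The strain of batch 1 is not given in the sources used here, and the labels name no engineered allele. Whether the libraries of a group stem from separate animals or cultures is not stated, so the spread behind each p-value is that between libraries and may be technical.

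The proteasome degrades proteins tagged with ubiquitin. Its barrel-shaped core has outer rings of alpha subunits (Psma genes), which gate the entry, and inner rings of beta subunits (Psmb genes), of which those of Psmb5, Psmb6 and Psmb7 cut proteins. In the immunoproteasome, these are replaced by the products of Psmb8, Psmb9 and Psmb10, which interferon gamma induces and which shape the peptides shown on MHC class I. The regulatory cap has a ring of ATPases (Psmc genes), which unfold the substrate, and non-ATPase subunits (most Psmd genes), which bind ubiquitin, remove it or hold the lid together. Psmd5, Psmd9 and Psmd10 encode chaperones of cap assembly. In muscle, the proteasome is known for breaking down contractile proteins during wasting. When its activity is blocked, the factor NRF1, encoded by Nfe2l1, is known to raise transcription of its subunit genes together through antioxidant response elements.

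Depth ranged from 14683346 to 20799588 counts a library in batch 1 and from 11107450 to 14201933 in batch 2. Levels are CPM, the usual scaling of counts to depth, with the library total multiplied by its TMM factor, the edgeR scaling that takes most genes as unchanged. A gene was called higher or lower at a Benjamini-Hochberg adjusted p under 0.05 in edgeR's two-sided quasi-likelihood test with TMM scaling, and "called" refers to that test unless another tool or setting is named. The markers of satellite cells and myoblasts (Pax7, Myf5, Myod1, Des, Itga7, Cdh15, Vcam1 and Chrna1) were detected in every group. Their summed level was 6390 to 6720 CPM with DMSO and 2100 to 2920 CPM with adenosine in batch 1. In batch 2 it was 5620 to 6540 CPM with DMSO, 1840 to 2270 CPM with adenosine and 2160 to 2940 CPM with AMP. The markers did not all go one way. Des, Myod1, Chrna1, Itga7, Cdh15 and Vcam1 were called lower in all 3 comparisons, while Pax7, the defining gene of satellite cells, was called higher in batch 2 (0.35 with adenosine, adjusted p = 0.00292, and 0.62 with AMP, adjusted p = 2.5e-05) and not in batch 1 (-0.16, adjusted p = 0.367). The part of these differences in the results below was not tested. In bulk RNA, fewer cells of a type and less RNA per cell cannot be told apart. One choice of scaling touches every direction given below: scaled to library totals without TMM, the median over all genes moved on the log2 scale from 0.03 to 0.22 in batch 1, from 0.01 to 0.32 for adenosine in batch 2 and from 0.01 to 0.28 for AMP.

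Promoter stretches of 4 members are printed here because they hold letters of factors known to act on proteasome genes, or because the member moved in several comparisons. They are upstream of the RefSeq start (GRCm38), 5′ to 3′ on the gene's strand. Psmb5 (chr14:54618023-54618245, minus strand) and Psmb6 (chr11:70525107-70525356, plus strand) encode catalytic subunits of the constitutive core, and capitals mark the core of the antioxidant response element, TGACNNNGC. The stretch of Psmb10 (chr8:105938445-105938642, minus strand), the immunoproteasome counterpart of Psmb7, has the E-box CACGTG in capitals. Psmd4 (chr3:95042615-95042864, minus strand) encodes a ubiquitin receptor of the cap, and capitals mark a CCAAT box on the opposite strand and a match to the interferon-stimulated response element on the opposite strand.
Psmb5: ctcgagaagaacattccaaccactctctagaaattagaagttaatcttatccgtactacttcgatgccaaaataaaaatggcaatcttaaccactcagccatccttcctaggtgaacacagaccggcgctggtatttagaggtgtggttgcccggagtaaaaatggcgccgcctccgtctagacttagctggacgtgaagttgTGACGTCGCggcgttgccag
Psmb6: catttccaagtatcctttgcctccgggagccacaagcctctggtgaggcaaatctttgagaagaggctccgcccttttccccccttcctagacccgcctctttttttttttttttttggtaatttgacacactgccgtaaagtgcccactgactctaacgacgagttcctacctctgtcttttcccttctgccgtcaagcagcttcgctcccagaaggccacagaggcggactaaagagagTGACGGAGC
Psmb10: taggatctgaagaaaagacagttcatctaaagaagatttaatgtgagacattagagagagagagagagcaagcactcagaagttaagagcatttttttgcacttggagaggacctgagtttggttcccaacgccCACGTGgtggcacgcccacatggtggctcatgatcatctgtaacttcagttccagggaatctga
Psmd4: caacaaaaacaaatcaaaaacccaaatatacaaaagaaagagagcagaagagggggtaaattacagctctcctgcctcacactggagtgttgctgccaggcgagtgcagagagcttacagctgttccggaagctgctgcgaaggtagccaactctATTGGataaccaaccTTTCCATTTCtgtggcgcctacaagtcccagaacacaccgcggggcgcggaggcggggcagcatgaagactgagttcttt

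Promoter windows of 300 bases, 250 before and 50 after the start, were matched for 32 of the 38 members, with 34 windows because some genes have several, and were searched on both strands. Shares are of genes with a match in any window. The antioxidant response core TGACNNNGC was found for 5 of the 32 members (15.6%), Psmb5, Psmb6, Psmc6, Psmd9 and Psmd12, and for 14.0% of all 27025 genes. CCAAT was found for 13 members (40.6%) against 41.1%, and CACGTG for 3 (9.38%) against 8.09%. The interferon-stimulated response element was found for 3 (9.38%; Psmb3, Psmd4 and Psmd9) against 3.99%. A match is a description of the letters and not a bound site.

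With DMSO, the class median per length was highest for the constitutive beta genes and lowest for the immunoproteasome class. On the authors' FPKM scale, which corrects for gene length, the median was 157 FPKM over the 7 alpha subunit genes in each batch. It was 217 FPKM in batch 1 and 201 FPKM in batch 2 over the 7 constitutive beta genes. The 6 ATPase genes had medians of 156 and 130 FPKM, the 11 non-ATPase genes 83.8 and 85.1 FPKM, and the 3 chaperone genes 25.1 and 23.0 FPKM. Psma2, an alpha subunit, was highest in both batches, at 339 ± 8.74 FPKM (SD, n = 3) in batch 1 and 341 ± 16.4 FPKM in batch 2. Psmb1, a beta subunit without a cutting site, followed at 302 ± 10.2 and 282 ± 5.63 FPKM. The third place differed, with Psmb5 at 299 ± 37 FPKM in batch 1, within its SD of Psmb1, and Psma5 at 276 ± 2.18 FPKM in batch 2. Immunoproteasome genes were far below their counterparts: Psmb10 had 45.1 ± 14.8 and 22.9 ± 2.24 FPKM, Psmb8 2.64 ± 0.838 and 1.67 ± 0.149 FPKM, and Psmb9 1.71 ± 0.432 and 1.20 ± 0.209 FPKM. Psmb11, the subunit of the thymic cortex, had 0, 5 and 0 counts with DMSO and 1, 3 and 0 with adenosine in batch 1, and did not pass the filter on low counts. The other 37 members were tested in every comparison. FPKM of the batches were scaled separately by the authors, so levels of a gene are compared with other genes of the same batch.

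**Figure D1:**
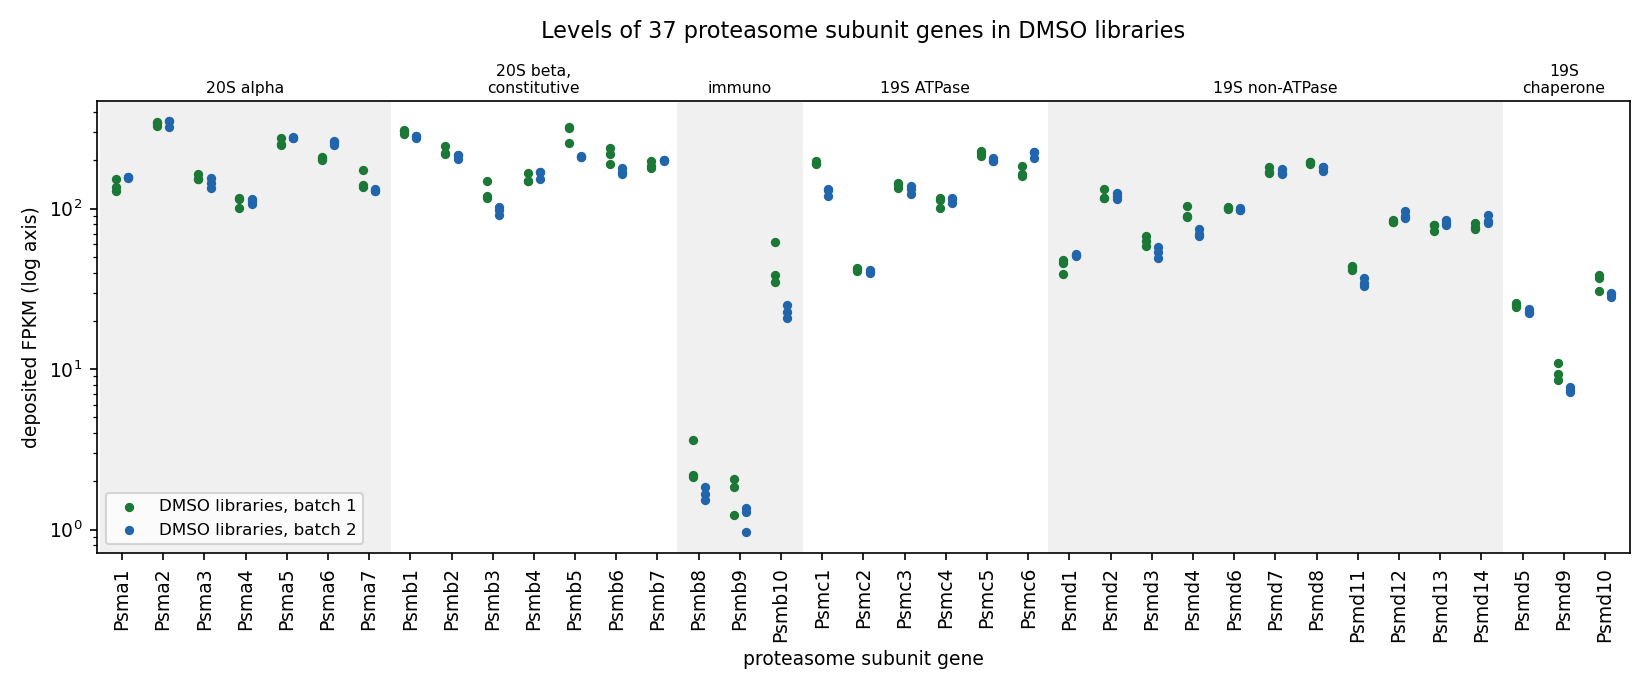
Level of each member in the DMSO libraries on the authors' FPKM scale (vertical axis, log10), for 37 members (horizontal axis, by class) in batch 1 (green) and batch 2 (blue); each point is 1 library, and Psmb11 is left out. The constitutive core genes sit between 97.3 and 341 FPKM on average, and Psmb8 and Psmb9 below 3 FPKM.

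Most proteasome genes differed little from DMSO in the 3 comparisons, and the calls ran in different directions in the 2 batches. With 0.05 mM adenosine in batch 1, 7 of the 37 tested members were higher (18.9%) and none was lower, against 19.6% and 19.5% of the 13842 genes tested. In edgeR 0 members were lower there at an unadjusted p under 0.05, and DESeq2 called 0 lower. With 0.1 mM adenosine in batch 2, 3 members were higher (8.11%) and 11 were lower (29.7%), against 34.9% and 34.5% of the 13063 genes tested. With 0.25 mM AMP, 3 were higher (8.11%) and 14 were lower (37.8%), against 33.7% and 31.8%. Shares of members called lower in batch 2 were near the background. Shares called higher were below it there. Among genes with at least 10 CPM, 7 of at most 37 members were called higher with adenosine, beside 3100 of all 8581 genes tested. With AMP 7 members were, beside 3035 of all 8581 genes. In a fit of the 6 libraries compared, 5 members were called higher with adenosine, beside 4652 of all 12947 genes. Both batch 2 comparisons share the same 3 DMSO libraries. Under library totals the lower calls of batch 2 fell to 0 with adenosine and 1 with AMP, while the higher calls were 22 in batch 1, 25 for adenosine and 15 for AMP in batch 2. The 7 higher calls of batch 1 came down to 2 without adenosine library 2 or 3 or DMSO library 2, and to 3 without DMSO library 1 or 3.

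The size of the differences was small compared with other genes. The median log2 fold change of the members was 0.19 in batch 1 (range -0.66 to 1.03), -0.02 for adenosine in batch 2 (-0.46 to 1.73) and -0.09 for AMP (-0.49 to 1.63). The sign of the batch 2 medians depends on the scaling, since they were 0.28 and 0.17 under library totals and 0.38 in batch 1. Relative to the median of all genes, the members' median was 0.16 in batch 1 and -0.04 for adenosine in batch 2 under both scalings. For AMP it was -0.10 with TMM and -0.11 under library totals. A log2 fold change between -0.5 and 0.5 was found for 35 of 37 members in each comparison (94.6%), against 51.5%, 41.8% and 46.0% of all genes tested. Among genes with at least 10 CPM the corresponding shares were 62.6%, 50.3% and 56.1%. The median absolute log2 fold change was 0.19, 0.12 and 0.14 for the members and 0.48, 0.62 and 0.56 for all genes. Psmb8 was the single member past a 2-fold change in each comparison. Levels of the treated and DMSO libraries did not overlap for 14 members in batch 1 (37.8%, against 51.4% of all genes), 12 of them higher and 2 lower with adenosine. They did not overlap for 21 members with adenosine in batch 2 (56.8%, against 73.6%), 8 higher and 13 lower, and for 21 with AMP (56.8%, against 70.5%), 5 higher and 16 lower.

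**Figure D2:**
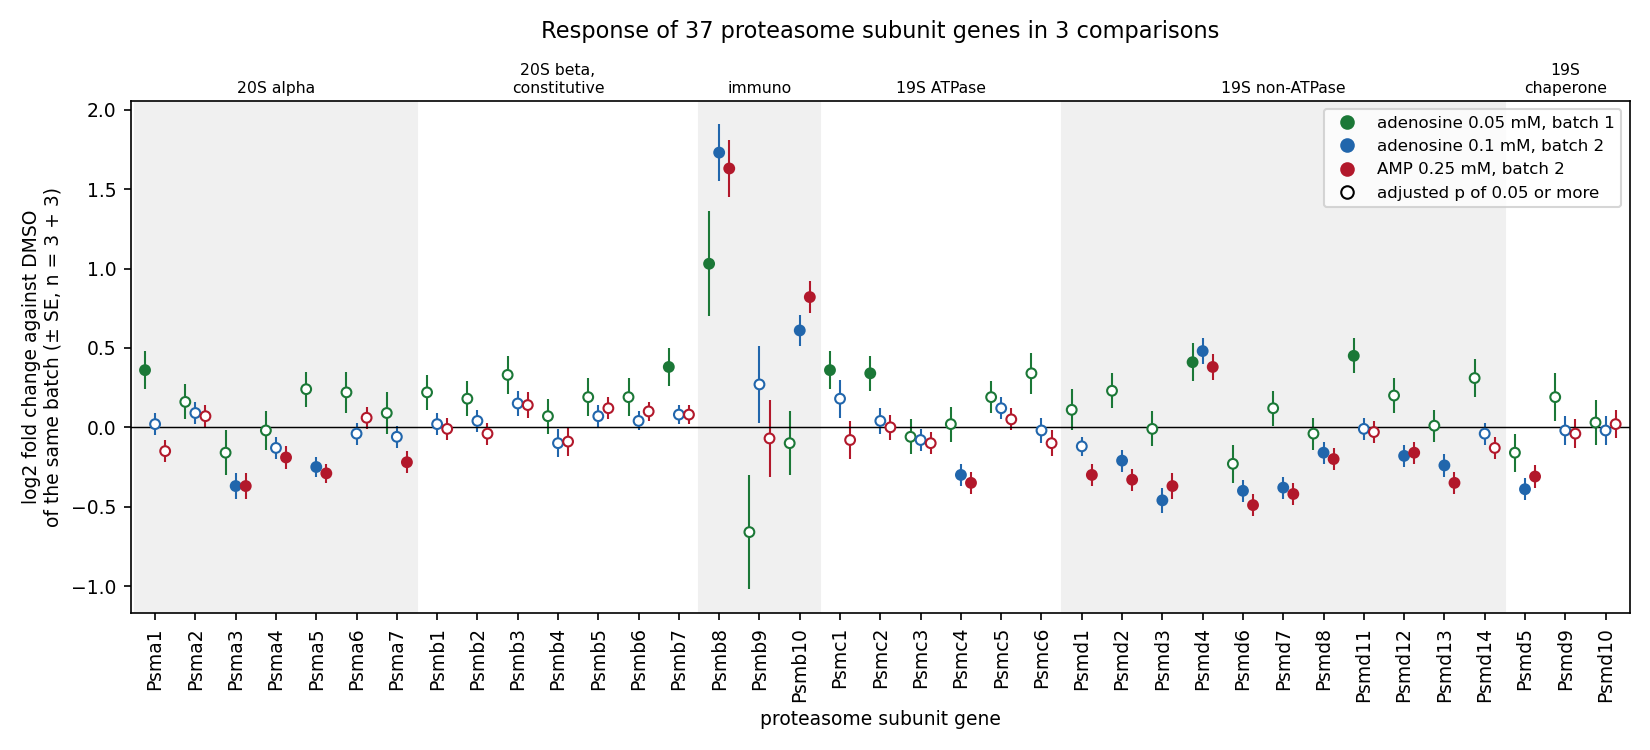
TMM-scaled log2 fold change against the DMSO libraries of the same batch (vertical axis) for the 37 tested members (horizontal axis, by class) in the 3 comparisons (colours); bars are ± SE and filled points have an adjusted p under 0.05. Most points lie within 0.5 of 0 and Psmb8 stands far above, while under library totals all values are higher and 1 lower call is made, Psmd6 with AMP.

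**Figure D3:**
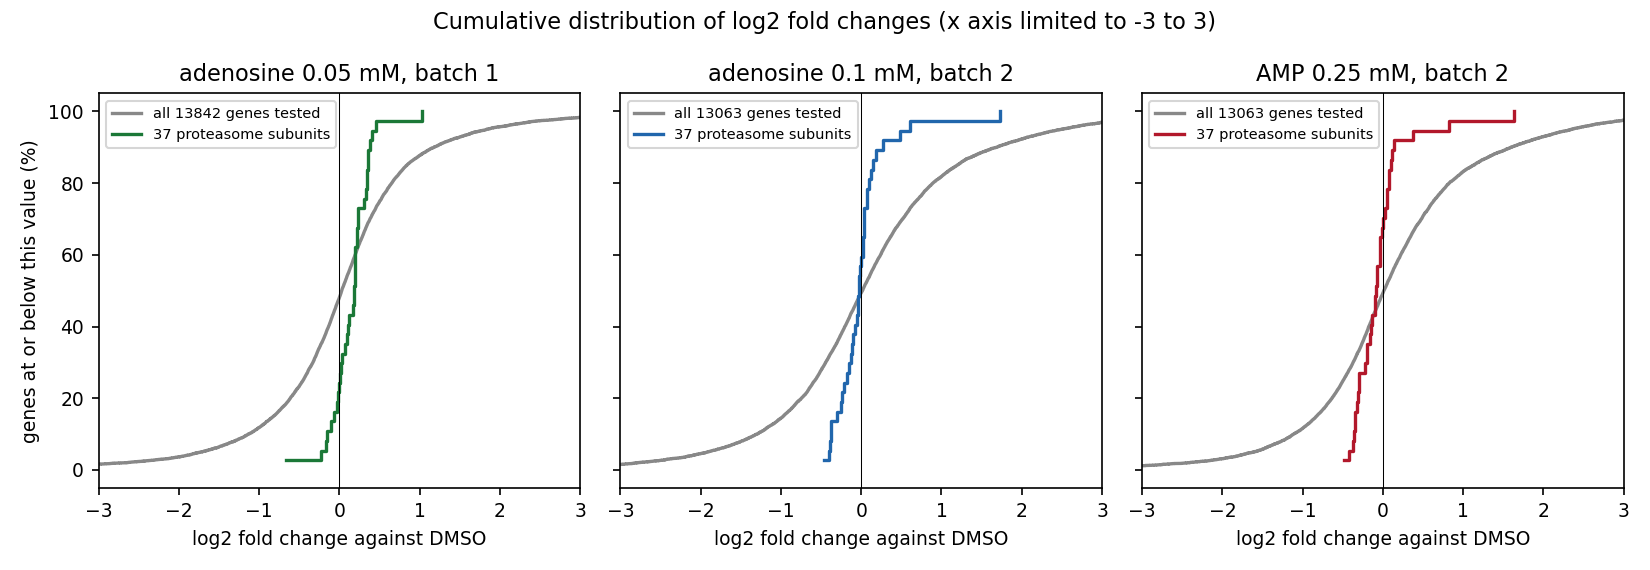
Share of genes at or below each log2 fold change (vertical axis, cumulative) for the 37 members and for all genes tested, with 1 panel per comparison. The line of the members is steeper, with 94.6% of them between -0.5 and 0.5 against 41.8% to 51.5% of all genes.

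The immunoproteasome genes Psmb8 and Psmb10 held the highest fold changes of all members in batch 2. Psmb8 (chr17:34197721-34201454 in GRCm38, plus strand) encodes the immunoproteasome counterpart of Psmb5. In batch 1 its level was 5.83, 9.97 and 6.05 CPM with DMSO and 12.7, 22 and 9.92 CPM with adenosine. The groups overlapped by 1 adenosine library, the third, which lay just below the highest DMSO library. The fold change was 2.05, a log2 change of 1.03 (SE 0.33, adjusted p = 0.024). This call was lost without adenosine library 2 (0.61, adjusted p = 0.176), DMSO library 1 (0.88, adjusted p = 0.0794) or DMSO library 3 (0.91, adjusted p = 0.0733). In batch 2 the level was 4.26, 5.04 and 4.58 CPM with DMSO, 17.3, 13.9 and 14.7 CPM with adenosine and 17, 13.6 and 12.4 CPM with AMP. All 6 treated libraries lay well above the DMSO libraries. Psmb8 rose 3.31-fold with adenosine, a log2 change of 1.73 (SE 0.18, adjusted p = 5.31e-07). With AMP it rose 3.1-fold, a log2 change of 1.63 (SE 0.18, adjusted p = 1.41e-06). Both calls held in every alternative run. The batch 2 effect of adenosine was 0.70 above that of batch 1 on the log2 scale (SE 0.40, adjusted p = 0.284), short of the threshold. Psmb8 shares exon bases with an antisense gene, Gm20496, and the counting of batch 1 did not use strand, so their reads cannot be told apart in batch 1, while the strand setting of batch 2 is not given in the sources used here.

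Psmb10 (chr8:105935728-105938392, minus strand) encodes the counterpart of Psmb7. In batch 1 its level was 44.3, 49.4 and 79.2 CPM with DMSO and 61.4, 52.3 and 47 CPM with adenosine, and the groups overlapped. The log2 fold change was -0.10 (SE 0.20, adjusted p = 0.714). In batch 2 the level was 32.5, 28.8 and 26.6 CPM with DMSO, 43.4, 42.7 and 48.4 CPM with adenosine and 55.2, 51.1 and 49.4 CPM with AMP. Every treated library lay above every DMSO library. Psmb10 rose 1.53-fold with adenosine (log2 fold change 0.61, adjusted p = 8.38e-05) and 1.77-fold with AMP (log2 fold change 0.82, adjusted p = 5.32e-06). The difference between batches was 0.72 (SE 0.26, adjusted p = 0.0841). It passed the threshold without adenosine library 1 of batch 1 (0.84, adjusted p = 0.0485), without DMSO library 1 of batch 1 (0.89, adjusted p = 0.0246) and under library totals (0.82, adjusted p = 0.0436).

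Psmb9 (chr17:34181988-34187764, minus strand), the counterpart of Psmb6, was not called in any comparison with TMM scaling, but under library totals it was called higher with adenosine in batch 2 (0.58, adjusted p = 0.0468). Its level in batch 1 was 7.57, 6.81 and 4.51 CPM with DMSO and 5.42, 3.74 and 2.81 CPM with adenosine. In batch 2 it was 5.05, 4.74 and 3.57 CPM with DMSO, 5.09, 5.07 and 5.99 CPM with adenosine and 3.47, 5.17 and 4.07 CPM with AMP. All these levels were below 8 CPM. The log2 fold changes were -0.66 (SE 0.36, adjusted p = 0.161) in batch 1, 0.27 (SE 0.24, adjusted p = 0.322) for adenosine in batch 2 and -0.07 (SE 0.24, adjusted p = 0.804) for AMP. The adenosine and DMSO libraries of batch 2 did not overlap, while the highest DMSO and lowest adenosine values were almost equal. Psmb9 shares exon bases with Tap1, which encodes a peptide transporter and was not called with TMM scaling (log2 fold changes -0.07, 0.05 and 0.16).

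**Figure D4:**
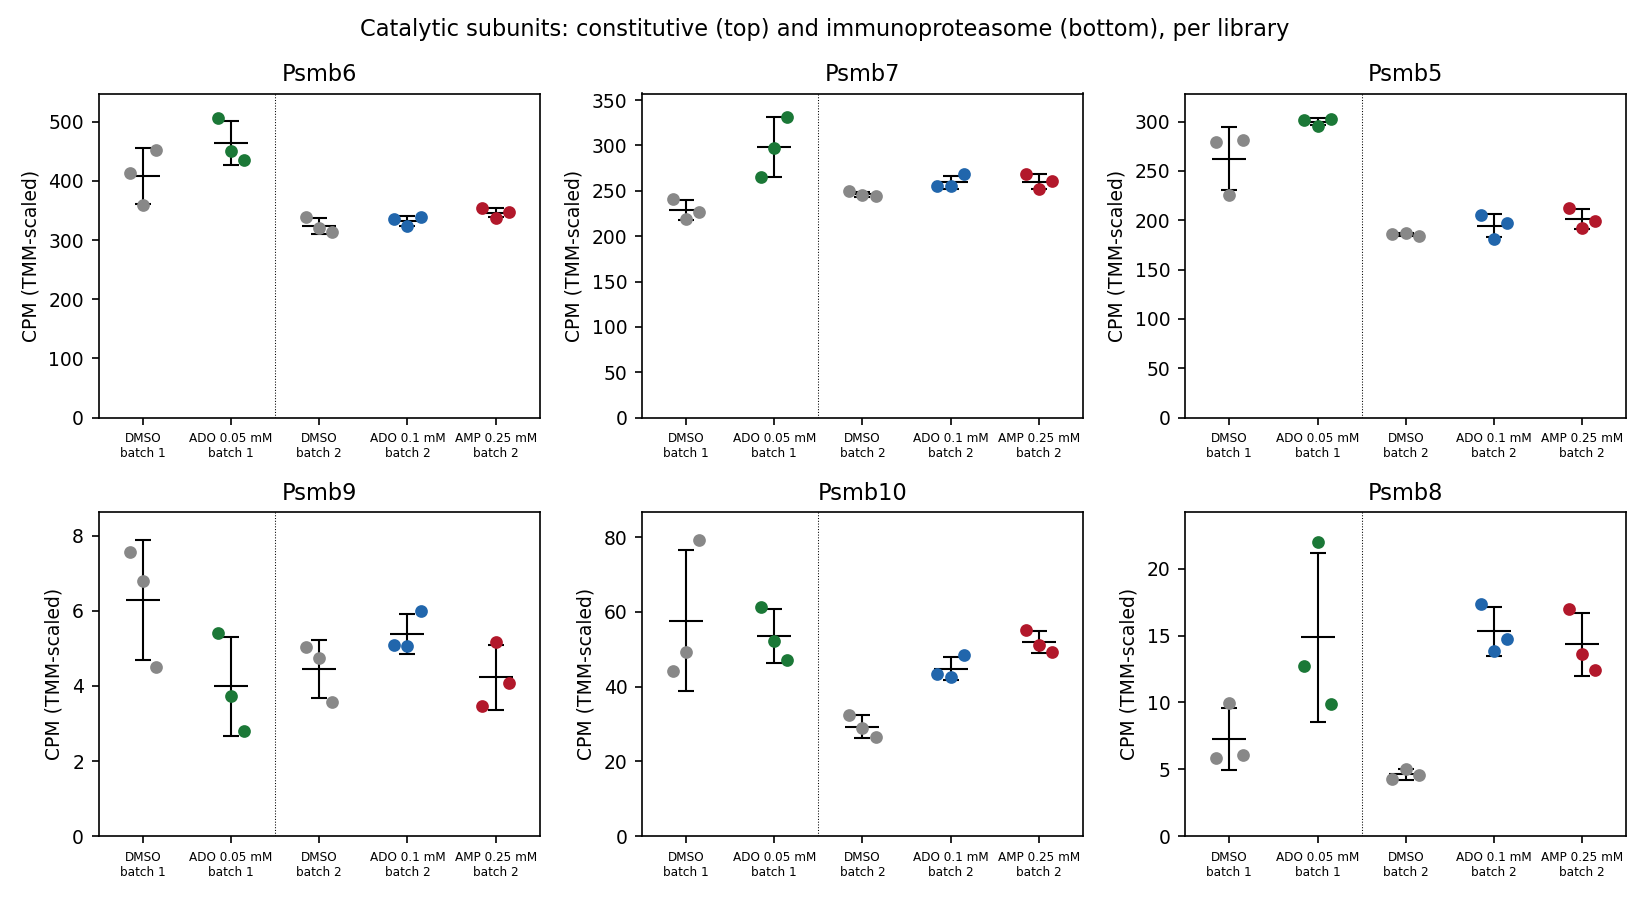
Level in CPM (TMM-scaled, vertical axes from 0) of the 3 constitutive catalytic genes (top) and their immunoproteasome counterparts (bottom) in the 5 groups (horizontal axes); points are libraries, long lines are group means and bars are ± SD (n = 3; ADO is adenosine). Psmb8 and Psmb10 stand higher in the treated libraries of batch 2, while Psmb5, Psmb6 and Psmb7 were not called in batch 2 on this scale and were called higher under library totals.

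Among the constitutive catalytic genes, Psmb7 was called in batch 1 and none was called in batch 2 with TMM scaling, while under library totals Psmb5, Psmb6 and Psmb7 were called higher in all 3 comparisons (log2 fold changes 0.34 to 0.58). Among genes with at least 10 CPM, all 3 were called higher with AMP (0.15 to 0.19, adjusted p 0.0206 to 0.0331) and Psmb7 with adenosine in batch 2 (0.15, adjusted p = 0.0349). Psmb5 (chr14:54614120-54617995, minus strand), for the chymotrypsin-like activity, had 279.7, 226 and 282 CPM with DMSO and 302, 296 and 302 CPM with adenosine in batch 1. In batch 2 it had 186, 187 and 184 CPM with DMSO, 205, 181 and 198 CPM with adenosine and 213, 192 and 199 CPM with AMP. The adenosine libraries of batch 1 and the AMP libraries lay above their DMSO libraries, and those of adenosine in batch 2 overlapped them. The log2 fold changes were 0.19 (SE 0.12, adjusted p = 0.219), 0.07 (SE 0.07, adjusted p = 0.401) and 0.12 (SE 0.07, adjusted p = 0.155), in the same order of comparisons.

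Psmb6 (chr11:70525367-70527858, plus strand), for the caspase-like activity, had 413, 359 and 452 CPM with DMSO and 507, 450.0 and 436 CPM with adenosine in batch 1. In batch 2 it had 339.6, 320.1 and 313 CPM with DMSO, 335, 324 and 338 CPM with adenosine and 354, 338 and 348 CPM with AMP. Each treated group overlapped the DMSO libraries of its batch, and none was called. Its 95% intervals of the log2 fold change were -0.05 to 0.42, -0.09 to 0.16 and -0.03 to 0.22.

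Psmb7 (chr2:38588036-38644087, minus strand), for the trypsin-like activity, had 241, 219 and 227 CPM with DMSO and 265, 298 and 331 CPM with adenosine in batch 1. All 3 adenosine libraries were higher, and the log2 fold change was 0.38 (SE 0.12, adjusted p = 0.0217). This call was lost without adenosine library 2 or 3 or DMSO library 2 or 3 of batch 1 (0.28 to 0.36, adjusted p 0.0553 to 0.114) and with no filter on low counts (adjusted p = 0.055). In batch 2 the level was 249, 245 and 244 CPM with DMSO, 255, 255 and 268 CPM with adenosine and 268, 252 and 260.3 CPM with AMP. The log2 fold change was 0.08 (SE 0.06, adjusted p = 0.293) with adenosine and 0.08 (SE 0.06, adjusted p = 0.282) with AMP.

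The share of each immunoproteasome subunit in its pair was compared per library on the FPKM scale, which is free of the choice between TMM and library totals. Psmb8 made up 0.722% to 0.852% of the sum of Psmb8 and Psmb5 with DMSO in batch 2, 2.32% to 2.62% with adenosine and 1.95% to 2.48% with AMP. In batch 1 it made up 0.659% to 1.39% with DMSO and 1.03% to 2.31% with adenosine, and the groups overlapped. Psmb10 made up 9.45% to 11.1% of the sum of Psmb10 and Psmb7 with DMSO in batch 2, 13.8% to 14.7% with adenosine and 15.3% to 16.4% with AMP. Its share in batch 1 was 14.9% to 25% with DMSO and 11.9% to 18.1% with adenosine. Psmb9 made up under 1% of the sum of Psmb9 and Psmb6 in every library. The 3 immunoproteasome genes together held 3.92% to 4.53% of the FPKM of the 6 catalytic genes with DMSO in batch 2, 6.29% to 6.70% with adenosine and 6.62% to 7.18% with AMP. In batch 1 they held 5.01% to 8.05% with DMSO and 4.63% to 6.12% with adenosine. The exact two-sided permutation p over libraries was 0.1 for the 3 gene share in each batch 2 comparison, the smallest that 3 against 3 libraries can give, and 0.4 in batch 1. Such a test could not fall under 0.05, so it decides nothing here.

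The summed markers of leukocytes and endothelium were higher in the treated libraries of both batches at a low level. Those of fibroblasts and smooth muscle were lower with adenosine in both. In batch 2 the sums rest on 2 of 5 endothelial genes, 3 of 5 fibroblast genes and 1 of 4 smooth muscle genes, Cspg4. Of the immunoproteasome genes, Psmb8 was called higher in batch 1 (1.03, adjusted p = 0.024), and Psmb9 and Psmb10 were not called there. The leukocyte markers present in the tables (7 of 10 in batch 1 and 2 of 10 in batch 2) summed to 1.97 to 3.63 CPM with DMSO and 12.8 to 18.3 CPM with adenosine in batch 1. In batch 2 they summed to 1.92 to 3.71 CPM with DMSO, 11.5 to 14.2 CPM with adenosine and 11.9 to 14.8 CPM with AMP. The highest of them was Cd68, a lysosomal protein of macrophages, at 1.12 to 3.47 CPM with DMSO and 10.3 to 14 CPM in the treated libraries of both batches, with log2 fold changes of 2.58, 1.92 and 2.03. The other leukocyte gene of batch 2 was Csf1r (3.06 with adenosine and 3.48 with AMP). The batch 2 counts came filtered, with a smallest gene total of 101. A gene low with DMSO could pass that filter through its treated libraries, and the part of the filter in the summed rise was not tested. The defining leukocyte gene Ptprc had 0, 0 and 1 counts with DMSO and 18, 3 and 7 with adenosine in batch 1, where the macrophage markers Adgre1 and Csf1r were at 0 counts in all 3 DMSO libraries. Endothelial markers summed to 5.42 to 7.47 CPM with DMSO and 17.1 to 22.6 CPM with adenosine in batch 1. In batch 2 they summed to 2.32 to 6.04 CPM with DMSO, 8.23 to 9.94 CPM with adenosine and 8.90 to 11.4 CPM with AMP. Among these genes Tek was called higher in all 3 comparisons and Pecam1 in none. Fibroblast markers summed to 373 to 474 CPM with DMSO and 293 to 370 CPM with adenosine in batch 1, and to 380 to 450 CPM, 273 to 276 CPM and 351 to 428 CPM with DMSO, adenosine and AMP in batch 2. Of them, Dpt alone was called in batch 1, and Pdgfra went the other way there without a call (1.29, adjusted p = 0.272). Smooth muscle markers summed to 4.98 to 5.34 CPM with DMSO and 0.921 to 2.15 CPM with adenosine in batch 1, and to 1.58 to 2.62 CPM, 0.211 to 0.477 CPM and 0.307 to 0.711 CPM in batch 2. The part of these cell types in the results was not tested.

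The 4 other constitutive beta genes, whose products have no cutting site, were not called in any comparison by edgeR. Psmb3 had the highest log2 fold change of the class in batch 2, 0.15 with adenosine (adjusted p = 0.111) and 0.14 with AMP (adjusted p = 0.147), and 0.33 in batch 1 (adjusted p = 0.0513). Psmb4 was lowest, at 0.07, -0.10 and -0.09. Medians of the 7 constitutive beta genes were 0.19, 0.04 and 0.08. Under library totals, 6, 7 and 6 of them were called higher in the 3 comparisons.

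Of the 7 alpha subunit genes, 1 was higher in batch 1 (14.3%, against 19.6% of all genes tested). In batch 2, 2 were lower with adenosine (28.6%, against 34.5%) and 4 with AMP (57.1%, against 31.8%). Under library totals 4, 4 and 2 were higher and none lower. Psma1 had 323, 275 and 288 CPM with DMSO and 336, 392 and 408 CPM with adenosine in batch 1, and the groups did not overlap. Its log2 fold change there was 0.36 (SE 0.12, adjusted p = 0.0305), the highest of the class. That call was lost without adenosine library 2 or 3 or DMSO library 2 or 3 (0.28 to 0.33, adjusted p 0.0788 to 0.136), with no filter on low counts (adjusted p = 0.074) and with the replicate number as a block (adjusted p = 0.0668). In batch 2 its log2 fold change was 0.02 with adenosine and -0.15 with AMP, neither called by edgeR, while DESeq2 called it lower with AMP (-0.16, adjusted p = 0.0408) and library totals called it higher with adenosine (0.33, adjusted p = 0.00181).

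Psma3 was lowest of the alpha genes in all 3 comparisons. It had 614, 527 and 569 CPM with DMSO in batch 2, 452, 435 and 435 CPM with adenosine and 426, 422 and 478 CPM with AMP, and neither treated group overlapped DMSO. The log2 fold change was -0.37 (SE 0.08, adjusted p = 0.000403) with adenosine and -0.37 (SE 0.08, adjusted p = 0.000542) with AMP. Under library totals it was -0.06 and -0.10, and neither passed. In batch 1 the level was 648, 602 and 596 CPM with DMSO and 433, 605 and 618 CPM with adenosine (log2 fold change -0.16, adjusted p = 0.392). The first adenosine library stood apart there from the other two, which overlapped DMSO.

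Psma5 was lower in both batch 2 comparisons, at -0.25 (SE 0.06, adjusted p = 0.00221) with adenosine and -0.29 (SE 0.06, adjusted p = 0.000641) with AMP on the log2 scale, while under library totals the values were 0.06 and -0.02. Its levels were 368, 367 and 372 CPM with DMSO, 307, 308 and 317 CPM with adenosine and 303, 294 and 306 CPM with AMP. Psma4 (-0.19) and Psma7 (-0.22) were called lower with AMP, and under library totals both changed sign. The Psma4 call was lost without AMP library 1 or 2 or DMSO library 1 or 3 (adjusted p 0.0568 to 0.0845). With adenosine in batch 2 their log2 fold changes were -0.13 and -0.06, not called. Psma2, the member with the highest FPKM, had log2 fold changes of 0.16, 0.09 and 0.07 and was highest of the class in batch 2, without a call with TMM scaling and with a higher call in all 3 comparisons under library totals.

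Of the 6 ATPase genes, 2 were higher in batch 1 (33.3%, against 19.6% of all genes tested). In each batch 2 comparison 1 was lower (16.7%, against 34.5% with adenosine and 31.8% with AMP). Under library totals 4, 5 and 2 were higher and none lower. Psmc1 had 288, 302 and 292 CPM with DMSO and 323, 388 and 421 CPM with adenosine in batch 1. All adenosine libraries were higher, and the log2 change was 0.36 (SE 0.12, adjusted p = 0.0312). Psmc2 was also higher there (0.34, SE 0.11, adjusted p = 0.0222). Either call was lost on leaving out adenosine library 2 or 3 or any DMSO library (adjusted p 0.0707 to 0.158 for Psmc1 and 0.0559 to 0.0914 for Psmc2). Both were also lost with no filter on low counts (adjusted p 0.0731 and 0.109) and with the replicate number as a block (0.0567 and 0.0548). In batch 2 Psmc1 had log2 fold changes of 0.18 with adenosine, the highest of the ATPases, and -0.08 with AMP.

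Psmc4 was the ATPase gene called in batch 2. It had 240.1, 252 and 255 CPM with DMSO, 200.1, 200.4 and 208 CPM with adenosine and 195, 183 and 207 CPM with AMP, with no overlap. The log2 fold change was -0.30 (SE 0.07, adjusted p = 0.00111) with adenosine, which turned to 0.01 under library totals, and -0.35 (SE 0.07, adjusted p = 0.000298) with AMP. In batch 1 its log2 fold change was 0.02. Psmc3, lowest of the class in batch 1 at -0.06, and Psmc5, highest with AMP at 0.05, were not called with TMM scaling, while under library totals Psmc5 was called higher in all 3 comparisons and Psmc3 with adenosine in batch 2.

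The non-ATPase genes of the cap held most of the lower calls. Of 11 tested, 2 were higher in batch 1 (18.2%, against 19.6% of all genes tested). With adenosine in batch 2, 1 was higher (9.09%, against 34.9%) and 7 lower (63.6%, against 34.5%). With AMP, 1 was higher (9.09%, against 33.7%) and 8 lower (72.7%, against 31.8%). Under library totals the counts were 6 higher in batch 1, 4 higher and none lower with adenosine in batch 2, and 2 higher and 1 lower with AMP. Class medians were 0.12, -0.18 and -0.30.

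Psmd4 (chr3:95032694-95042614, minus strand), a ubiquitin receptor of the cap, was called higher in all 3 comparisons, whereas most of its class was called lower in batch 2 with TMM scaling. In batch 1 it had 256, 251 and 292 CPM with DMSO and 388, 326 and 346 CPM with adenosine. In batch 2 it had 199, 210.4 and 193 CPM with DMSO, 264, 277 and 299.5 CPM with adenosine and 262, 238 and 283 CPM with AMP. Every treated library was above every DMSO library of its batch. Psmd4 rose 1.33-fold in batch 1 (log2 fold change 0.41, adjusted p = 0.0152), 1.4-fold with adenosine in batch 2 (0.48, adjusted p = 4.98e-05) and 1.3-fold with AMP (0.38, adjusted p = 0.000542). Psmb8 was the other member called higher in all 3. The batch 1 call was lost without adenosine library 1 (0.30, adjusted p = 0.0584), DMSO library 1 (0.37, adjusted p = 0.0645) or DMSO library 2 (0.36, adjusted p = 0.0777), and the batch 2 calls held in every alternative run.

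The lid subunit gene Psmd11 had the highest log2 fold change of its class in batch 1. It had 279, 284 and 268 CPM with DMSO and 348, 361 and 425 CPM with adenosine, with no overlap, and rose 1.37-fold (log2 fold change 0.45, adjusted p = 0.00801). Without adenosine library 3 the value was 0.34 (adjusted p = 0.0511). In batch 2 its log2 fold changes were -0.01 and -0.03, near 0.

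Psmd6, Psmd7 and Psmd3, subunits of the lid, had the lowest values of the class in batch 2. Psmd6 had 232, 229 and 236 CPM with DMSO, 166, 184 and 178 CPM with adenosine and 156, 165 and 174 CPM with AMP. No treated library reached the DMSO libraries. The log2 fold change was -0.40 (SE 0.07, adjusted p = 9.91e-05) with adenosine, or -0.09 under library totals, and -0.49 (SE 0.07, adjusted p = 1.6e-05) with AMP, or -0.22 (adjusted p = 0.038) under library totals. Psmd6 with AMP was thus the 1 lower call that both scalings made. In batch 1 Psmd6 had the lowest log2 fold change of the class, -0.23, and was not called.

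Psmd3 had 249, 268 and 288 CPM with DMSO in batch 2, 202, 180.4 and 203 CPM with adenosine and 226, 206 and 190.4 CPM with AMP. Both treated groups lay below DMSO, at -0.46 (SE 0.08, adjusted p = 0.000115) and -0.37 (SE 0.08, adjusted p = 0.000859) on the log2 scale, or -0.15 and -0.11 under library totals. Psmd7 had 285, 268 and 267 CPM with DMSO, 209, 207 and 216 CPM with adenosine and 210.3, 191 and 213 CPM with AMP. Again no treated library overlapped DMSO, and the log2 fold changes were -0.38 (SE 0.07, adjusted p = 0.00014) and -0.42 (SE 0.07, adjusted p = 6.64e-05), or -0.07 and -0.15 under library totals.

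Psmd2, a scaffold of the cap base, was lower with adenosine in batch 2 (-0.21, adjusted p = 0.0098) and AMP (-0.33, adjusted p = 0.00044), and under library totals its adenosine value was 0.10. Psmd8, Psmd12 and Psmd13, also of the lid, were lower in both, with log2 fold changes from -0.35 to -0.16 that turned positive under library totals for all 3 with adenosine and for Psmd8 and Psmd12 with AMP. The calls of Psmd8 and Psmd12 were lost without several single libraries (adenosine library 1 or 2, AMP library 2, DMSO library 2 or 3 for both genes, DMSO library 1 for Psmd8 and AMP library 1 for Psmd12), with adjusted p of 0.0511 to 0.202, and that of Psmd2 with adenosine without DMSO library 2 (-0.18, adjusted p = 0.0553). The Psmd8 call with adenosine held in 3 of 15 settings, the main one included, and was also lost with DESeq2, both limma fits, the 10 CPM filter, the fit of 6 libraries and the replicate block (adjusted p 0.0511 to 0.243). Psmd1, the other scaffold of the base, was lower with AMP (-0.30, adjusted p = 0.000828). Psmd14, the deubiquitinase of the lid, was not called (0.31, -0.04 and -0.13), while DESeq2 called it higher in batch 1 (adjusted p = 0.0445) and library totals called it higher with adenosine in both batches.

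Among the 3 assembly chaperones of the cap, Psmd5 was lower in both batch 2 comparisons. It had 168, 172 and 164 CPM with DMSO, 126, 139.8 and 119 CPM with adenosine and 134, 133 and 138 CPM with AMP. All treated libraries were lower, with log2 fold changes of -0.39 (SE 0.07, adjusted p = 0.000198) and -0.31 (SE 0.07, adjusted p = 0.00147), or -0.08 and -0.04 under library totals. In batch 1 its log2 fold change was -0.16, the lowest of the class. Psmd9 was highest of the 3 in batch 1 at 0.19, and Psmd10 highest with AMP at 0.02. Neither was called with TMM scaling, while under library totals Psmd9 was called higher in batch 1 and both were with adenosine in batch 2, as was Psmd10 with AMP.

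Adenosine effects were set against each other between the batches in a fit of the DMSO and adenosine libraries of both, without the AMP libraries. Dose and batch changed together (0.05 mM in batch 1 and 0.1 mM in batch 2) and cannot be told apart. Of the 37 members, 0 had a higher effect in batch 2 in edgeR (2 at an unadjusted p under 0.05, and 0 called by DESeq2). A lower effect was called for 5 (13.5%). Of the 13037 genes tested, 5.28% had a higher effect and 4.87% a lower one. The 5 were Psmd7 (-0.49, SE 0.11, adjusted p = 0.0109), Psma5 (-0.48, SE 0.11, adjusted p = 0.0156), Psmd2 (-0.43, adjusted p = 0.0243), Psmd11 (-0.45, adjusted p = 0.0282) and Psmd3 (-0.45, adjusted p = 0.0366). In batch 1, Psmd7 had 291, 269 and 272 CPM with DMSO and 286, 295 and 324 CPM with adenosine, Psma5 367, 335 and 334 CPM and 364, 424 and 432 CPM, and Psmd2 536, 475 and 477 CPM and 545, 581 and 618 CPM. For these 3 the adenosine libraries of batch 1 were mostly at or above DMSO while those of batch 2 were below it. Psmd3 in batch 1 had 316, 292 and 338 CPM with DMSO and 315, 288 and 339 CPM with adenosine, with full overlap. Psmd11 was called higher in batch 1 and had a value of -0.01 in batch 2. The number of lower effects was 1 without any 1 of the DMSO libraries of batch 2, 2 or 3 without any 1 of the adenosine libraries of batch 2, and 2 without DMSO library 2 or adenosine library 3 of batch 1. It was 12 without adenosine library 1 of batch 1, and 0 under library totals.

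Adenosine at 0.1 mM and AMP at 0.25 mM gave the following values side by side. Doses differ, so no test between the compounds was made. Psmb8, Psmb10 and Psmd4 were higher with both, and Psma3, Psma5, Psmc4, Psmd2, Psmd3, Psmd5, Psmd6, Psmd7, Psmd8, Psmd12 and Psmd13 were lower with both in the TMM scaling. For Psmb8, Psmd4 and Psmd3 the log2 fold change with adenosine (1.73, 0.48 and -0.46) was farther from 0 than with AMP (1.63, 0.38 and -0.37). For Psmb10 and Psmd6 the value with AMP (0.82 and -0.49) was farther from 0 than with adenosine (0.61 and -0.40).

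The summed level of the 37 members depended on the scaling as single genes did. As a share of all counts, they held 0.911% to 0.953% with DMSO and 1.11% to 1.24% with adenosine in batch 1. In batch 2 they held 0.811% to 0.854% with DMSO, 0.913% to 1.02% with adenosine and 0.875% to 0.978% with AMP. On the TMM scale the sums were 9619 to 10130 CPM with DMSO and 10470 to 11540 CPM with adenosine in batch 1. In batch 2 they were 9383 to 9568 CPM with DMSO, 8789 to 9249 CPM with adenosine and 8422 to 8844 CPM with AMP, so the treated libraries were below DMSO on this scale and above it as a share of counts. In each case the groups did not overlap, and the exact two-sided permutation p was 0.1, the smallest that 3 against 3 libraries can give. This test could not fall under 0.05 on either scale, so it decides nothing here. The ratio of treated to DMSO means was 1.28, 1.17 and 1.10 by share of counts and 1.11, 0.947 and 0.916 on the TMM scale, for batch 1, adenosine in batch 2 and AMP.

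**Figure D5:**
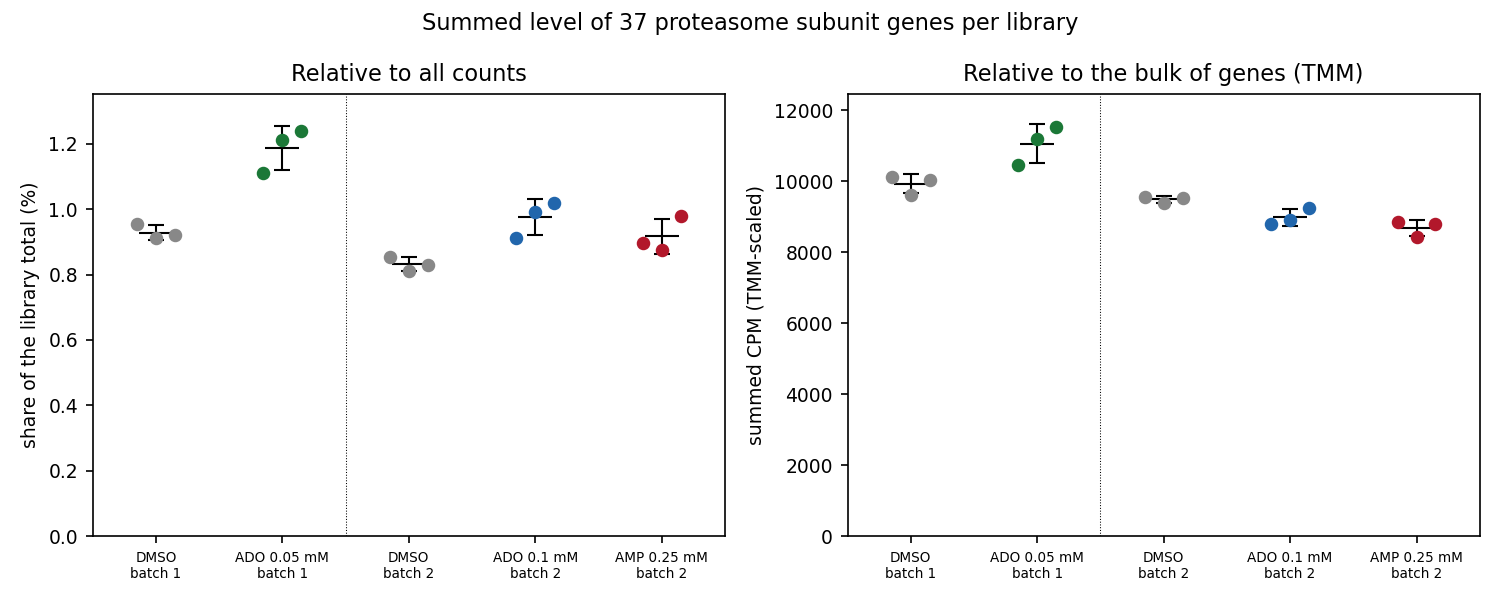
Summed level of the 37 members in each library of the 5 groups, as a percent of all counts (left) and in TMM-scaled CPM (right); points are libraries, long lines are group means and bars are ± SD (n = 3; ADO is adenosine), with axes from 0. In batch 2 the treated libraries sit above DMSO on the left and below it on the right.

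Genes that act with the proteasome were taken from lists of its regulators and partners. Of 5 activators and inhibitors, none was called in batch 1 by edgeR (1 was lower at an unadjusted p under 0.05, also in DESeq2). In batch 2, 3 were higher with adenosine and 2 with AMP, where 34.9% and 33.7% of all genes tested were higher. Under library totals none was called in batch 1, and 4 were higher in each batch 2 comparison. Psme2, a subunit of the interferon-inducible activator that binds the core, was higher with adenosine in batch 2 (0.35, SE 0.07, adjusted p = 0.000639) and AMP (0.41, SE 0.07, adjusted p = 0.000199). Its effect of adenosine differed between batches by 0.59 (adjusted p = 0.0298). Psmf1, an inhibitor of the core, was higher at 0.22 and 0.26. Psme4, an activator, was called with adenosine in batch 2 (0.30).

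Of 5 tested chaperones of core assembly, 1 was lower in batch 1, 1 higher and 3 lower with adenosine in batch 2, and 1 higher and 4 lower with AMP. Under library totals these counts became 1 lower, then 1 higher and 1 lower, then 1 higher. With TMM scaling, 19.5% of all genes tested were lower in batch 1. In batch 2, 34.9% were higher and 34.5% lower with adenosine, and 33.7% were higher and 31.8% lower with AMP. Psmg1 was lower in all 3 comparisons (-0.64, -0.98 and -0.46), with adjusted p of 0.00138, 5.82e-07 and 0.000954. Pomp, the maturation factor of the core, was higher in batch 2 (0.40, SE 0.07, adjusted p = 7.26e-05 with adenosine and 0.30, SE 0.07, adjusted p = 0.000913 with AMP). Psmg4 was the lowest of this list with AMP (-0.54).

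Of 9 other subunits and partners, 2 were higher in batch 1, and 1 was higher and 3 lower in each batch 2 comparison, against 6 higher and 1 lower with adenosine and 5 higher and 2 lower with AMP in batch 2 under library totals. With TMM scaling 22.2%, 11.1% and 11.1% of this list were higher, against 19.6%, 34.9% and 33.7% of all genes tested. In each batch 2 comparison 33.3% were lower, against 34.5% and 31.8%. Zfand5, which binds the cap and stimulates degradation, was higher in all 3 comparisons (0.62, 1.23 and 0.78). The deubiquitinase gene Uchl5 was lower in batch 2 (-0.90 and -0.88). Txnl1, a redox protein on the cap, was the lowest called value in batch 1, at 0.37.

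Of 9 shuttles and segregase genes, which bring tagged proteins to the proteasome, 1 was lower in batch 1, 1 higher and 5 lower with adenosine in batch 2, and 3 lower with AMP. Under library totals the counts were 3 higher and 1 lower, 3 higher and 1 lower, and 2 higher and 1 lower. With TMM scaling 11.1%, 55.6% and 33.3% of this list were lower, against 19.5%, 34.5% and 31.8% of all genes tested. Nploc4 was higher with adenosine in batch 2 (0.35), and with AMP the called values ran from -0.40 for Ubqln4 to -0.49 for Vcp, the segregase. Of 6 ubiquitin genes and activating enzymes, 1 was higher and 1 lower in batch 1, and 1 was higher and 2 lower in each batch 2 comparison, where library totals gave 3 higher and 2 lower. By the main test 16.7% were higher in each comparison, against 19.6%, 34.9% and 33.7% of all genes tested. The lower shares of 16.7%, 33.3% and 33.3% were near those of all genes. Ubb, which encodes ubiquitin in tandem, was higher in all 3 comparisons (0.90, 0.63 and 0.53). Rps27a, which encodes ubiquitin fused to a ribosomal protein, was lower in all 3 (-0.80, -0.92 and -0.89).

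Of 9 genes of the NRF1 route, 4 were higher in batch 1, 6 higher and 2 lower with adenosine in batch 2, and 6 higher and 1 lower with AMP, where 19.6%, 34.9% and 33.7% of all genes were higher. Under library totals 7 were higher in batch 1, 7 higher and none lower with adenosine in batch 2, and 7 higher and 1 lower with AMP. The 4 called in batch 1 with TMM scaling were Nfe2l2, Maff, Mafg and Mafk. Nfe2l1, Ngly1, Ddi2, Syvn1 and Sel1l were not called there. Nfe2l1 itself was higher in batch 2 (0.59, SE 0.07, adjusted p = 2.4e-06 with adenosine and 0.38, SE 0.07, adjusted p = 0.000275 with AMP) and at 0.19 in batch 1 (adjusted p = 0.198). Mafk, a small MAF partner of NRF1 and other factors, had the highest value of the list in each comparison (2.11, 1.82 and 1.82), and Mafg the lowest called one in batch 1 (0.53). Sel1l, of the degradation machinery of the endoplasmic reticulum, was lower in batch 2 (-0.38 and -0.70). Ddi2 was also called lower with adenosine in batch 2 (-0.28, adjusted p = 0.026), where its value was 0.02 under library totals.

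Of 10 genes of antigen processing by MHC class I, 5 were higher in batch 1, 6 higher and 1 lower with adenosine in batch 2, and 7 higher with AMP, with list medians of 0.61, 1.25 and 1.00, beside the same shares of all genes. Under library totals 5, 8 and 8 were higher and none lower. H2-K1, a class I heavy chain, was highest in batch 1 and with adenosine in batch 2 (1.52 and 2.09; 1.52 with AMP). Irf1, an interferon-response factor, was higher in all 3 (0.62, 1.43 and 1.36). Nlrc5, an activator of class I genes, was highest with AMP (1.85). Erap1, a peptide-trimming enzyme, was lower with adenosine in batch 2 (-0.30). Tap1 and Tap2, the peptide transporter, were not called with TMM scaling, and under library totals Tap1 was called higher in both batch 2 comparisons.

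Of 4 tested muscle ubiquitin ligase genes, 2 were higher in each comparison, and under library totals 3, 4 and 2, beside the same shares of all genes. Fbxo32, the atrophy-linked ligase subunit atrogin-1, had log2 fold changes of 2.11, 4.61 and 4.35, and Mdm2, a p53 ligase, 0.90, 0.72 and 0.74. Trim63, the other ligase known for muscle wasting, and Fbxo40 were not tested. Of the 8 genes of the CCT chaperonin, another ring-shaped complex of the cytosol, none was called in batch 1 by edgeR or DESeq2 (1 was higher at an unadjusted p under 0.05), 6 were lower with adenosine in batch 2 and 7 with AMP, while under library totals 3 were higher, then 2 higher and 3 lower, then 1 higher and 3 lower. With TMM scaling, 75.0% and 87.5% of the CCT genes were lower in batch 2, against 34.5% and 31.8% of all genes tested. Tcp1 was the lowest (-0.96 and -0.89), and the called values nearest 0 were -0.34 for Cct5 with adenosine and -0.24 for Cct7 with AMP.

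In the authors' deposited table of batch 1, 7 members had an adjusted p under 0.05, and all 7 were higher with adenosine and among those called here. In the annotation, 11 members share exon bases with another gene, and Psmb5, Psmb6 and Psmb7 have pseudogene copies, so how their reads were split is uncertain.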

How the data were processed

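Counts per gene and FPKM values were deposited by the authors for both batches. The submitters' processing notes name Trim Galore, STAR, featureCounts of Subread, DESeq2 and mm10. Per the file headers, batch 1 was counted with featureCounts version 1.6.4 in paired-end mode without strand, and its table carried the authors' log2 fold changes, coded as DMSO over adenosine, and adjusted p-values. Versions of the other tools, and the batch 2 counter settings, are not given here. The deposited batch 2 counts were filtered (smallest gene total 101), and its 43 lines without a gene name, 0.0589% of counts, were left out.

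Counts were tested in edgeR 4.0.16 (R 4.3.3) with TMM scaling, filterByExpr and quasi-likelihood F tests, adjusted over all genes. Batch 1 was fitted on 6 libraries and batch 2 on 9. The difference of adenosine effects was fitted on the DMSO and adenosine libraries of both batches, over 13037 genes. FPKM were used for levels between genes and shares of catalytic pairs. The fits were tested on simulated data. Alternatives were library totals, other filters, DESeq2 1.42.0, limma 3.58.1, fits on the 6 libraries compared, a replicate block and leaving out each library.

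Replicates differed by more than counting noise (chi-square per degree of freedom 3.54 to 34.4). Gene positions and overlaps came from GENCODE M21 and promoters from RefSeq, both GRCm38. Gene members and lists were chosen with earlier results of these data known. Named were the catalytic genes, the highest and lowest log2 fold change of each class and comparison, members with a called difference between batches, and the called extremes of each partner list; other names were added after seeing values. Some results that this rule would name are not reported here.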

Additional observations from a re-analysis of the deposited data

Results flagged for a closer look

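In 5 of 37 members (13.5%) the adenosine effect differed between the batches by a test of the difference itself. All 5 effects were lower in batch 2, against 4.87% of all 13037 genes tested. The test was edgeR's fit of the DMSO and adenosine libraries of both batches. On the log2 scale, the effect in batch 2 minus that in batch 1 was -0.49 for Psmd7 (adjusted p = 0.0109), -0.48 for Psma5 (adjusted p = 0.0156), -0.43 for Psmd2 (adjusted p = 0.0243), -0.45 for Psmd11 (adjusted p = 0.0282) and -0.45 for Psmd3 (adjusted p = 0.0366). Psmd7, Psma5 and Psmd2 had higher means with adenosine in batch 1 and lower ones in batch 2. Psmd3 was called lower in batch 2 and had a value of -0.01 in batch 1, and Psmd11 was called higher in batch 1 and had a value of -0.01 in batch 2. The Psmd7 difference lost its call in 1 alternative, library totals (-0.39, adjusted p = 0.062). That of Psma5 was lost under library totals (-0.37, adjusted p = 0.0835) and without any 1 DMSO library of batch 2 (adjusted p 0.0503 to 0.0593). Those of Psmd11, Psmd2 and Psmd3 were lost in 10, 7 and 11 of 17 alternatives. Over all members, 1 lower effect was called without any 1 DMSO library of batch 2, and 0 under library totals. Dose and batch cannot be told apart. Groups had 3 libraries, so single libraries were not tested for standing apart.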

How the results depend on the processing

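Scaling to library totals changed the calls of many members. Calls over all genes went from 2714 higher and 2706 lower to 4012 and 1955 in batch 1, from 4559 and 4508 to 6344 and 2891 with adenosine in batch 2, from 4405 and 4159 to 6037 and 2605 with AMP, and from 688 and 635 to 950 and 299 for the difference between batches. Among members, library totals gave 22 higher in batch 1, 25 higher and 0 lower with adenosine in batch 2, 15 higher and 1 lower with AMP, and 1 higher and 0 lower for the difference between batches, with medians of 0.38, 0.28, 0.17 and -0.08. Log2 fold changes that reversed under library totals were, with adenosine in batch 2, Psma5 0.06, Psmc4 0.01, Psmd12 0.13, Psmd13 0.07, Psmd2 0.10 and Psmd8 0.15, and with AMP, Psma4 0.08, Psma7 0.05, Psmd12 0.11 and Psmd8 0.07. Among genes with at least 10 CPM, 7 members were higher with adenosine in batch 2 (median 0.04) and 7 with AMP (median -0.02). Without a filter, 3 members were higher in batch 1. Fitted on the 6 libraries compared, 5 were higher with adenosine in batch 2.

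The replicate numbers were not taken as pairs in the main test. Deviations of same-numbered libraries correlated by -0.03 to 0.09 in batch 1 (median 0.05) and -0.07 to 0.30 in batch 2 (median 0.11). Differently numbered libraries correlated by -0.17 to 0.10 (median -0.03) and -0.25 to 0.14 (median -0.07). The medians were higher for same numbers in both batches, so these values do not exclude a pairing. With a replicate block, 4 members were higher in batch 1, 3 higher and 10 lower with adenosine in batch 2, 3 higher and 14 lower with AMP, and 4 lower in the difference between batches.

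Leaving out 1 library at a time gave 2 to 9 higher members in batch 1: 2 without adenosine library 2 or 3 or DMSO library 2, 3 without DMSO library 1 or 3, and 9 without adenosine library 1. It gave 3 to 4 higher and 8 to 11 lower with adenosine in batch 2, 3 higher and 11 to 15 lower with AMP, and 0 to 1 higher and 1 to 12 lower for the difference between batches. For single genes, 732 values stayed on their side of the threshold, 113 fell below it, 17 passed it and 10 reversed. Where construction does not show it, the cause was not tested. At 3 libraries a group, the median SE of a member was 0.12 in batch 1 and 0.07 in batch 2, so small differences were harder to detect in batch 1. Psmb8 and Psmb9, below 25 CPM, had wider errors than the rest.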
